A study of Arabidopsis thaliana with 48 samples.

Results

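The plasma membrane intrinsic proteins (PIPs) are the aquaporins of the plant plasma membrane, and their transcripts were followed here through the day and under water deficit in Arabidopsis thaliana. Their genes were chosen by a fixed list of 10 loci, which holds the PIP1 subfamily (PIP1;1 to PIP1;5) and 5 genes of the PIP2 subfamily (PIP2;1, PIP2;2, PIP2;5, PIP2;6 and PIP2;7). The table of expected counts has 26988 rows, and its row names are cut at a semicolon. Of the 10 loci, 7 have a row that names them alone, and they are called here by those row names, which are also their RefSeq symbols: PIP1A (PIP1;1), PIP1B (PIP1;2), PIP1C (PIP1;3), PIP2A (PIP2;1), PIP2B (PIP2;2), PIP2E (PIP2;6) and PIP3 (PIP2;7). Despite its name, PIP3 is a gene of the PIP2 subfamily. The row PIP1 can be PIP1;4, PIP1;5 or both, and it was analysed as the eighth row under the name "PIP1 row". The row PIP2 can be PIP2;5 or either of 2 genes outside the list, PIP2;4 and PIP2;8, so PIP2;5 cannot be told apart from them, and the values of this row stand beside the others. All 8 rows passed the filter on low counts, with expected counts from 120 to 37941 per library.

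RNA came from the part of 3-week-old Columbia plants above the hypocotyl, in 48 libraries of 24 groups of 2, and the labels call the 2 libraries biological replicates that each pool about 50 seedlings from 3 pots. The genotypes were wild type, gi-2 (a mutant of GIGANTEA, GI, which acts in the circadian clock and in flowering by day length) and aba1-6 (a mutant of ABA1, an enzyme of abscisic acid synthesis). Soil water content was held either high (normal watering) or low from soon after germination (drought). Days had 8 h of light, and harvests were made at Zeitgeber time (ZT, hours from lights on) 1, 8, 12 and 16, with ZT12 and ZT16 in light that was added on that day. At ZT12 and ZT16 time of day and the added light therefore cannot be told apart.

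Aquaporins are channels of 4 subunits, each with its own water pore, and the pore of each subunit is lined by a pair of short loops that carry the residues asparagine, proline and alanine (NPA). PIP2 proteins reach the plasma membrane and conduct water by themselves, while PIP1 proteins often need a PIP2 partner to get there. In Arabidopsis the PIPs carry much of the water that crosses cell membranes in roots and around leaf veins, and their transcripts are known to respond to time of day and to water deficit. A drop of PIP transcripts is a known response of droughted leaves, with PIP1;4 and PIP2;5 described as rising and PIP2E (PIP2;6) as steady.

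The coding stretches around the first NPA loop show how close the genes are to each other, which bears on how far their counts can be told apart. They are taken from the RefSeq annotation of TAIR10.1, 57 bases each, with the NPA codons in capitals and the gene's own strand from 5′ to 3′.
PIP1A (PIP1;1): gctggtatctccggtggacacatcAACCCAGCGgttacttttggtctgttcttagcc
PIP1B (PIP1;2): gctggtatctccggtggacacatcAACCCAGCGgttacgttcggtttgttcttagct
PIP2A (PIP2;1): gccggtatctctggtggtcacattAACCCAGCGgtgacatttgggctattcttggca
PIP2B (PIP2;2): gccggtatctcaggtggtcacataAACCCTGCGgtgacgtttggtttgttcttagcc
RD28 (PIP2;3): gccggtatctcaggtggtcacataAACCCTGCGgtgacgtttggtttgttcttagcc
PIP2E (PIP2;6): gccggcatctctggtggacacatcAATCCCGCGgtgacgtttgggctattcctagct
PIP3 (PIP2;7): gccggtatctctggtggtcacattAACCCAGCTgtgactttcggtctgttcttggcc
PIP1A and PIP1B differ at 4 of these 57 bases, PIP2A and PIP2B at 9, and PIP2B and PIP3 at 8. PIP2B and RD28 (PIP2;3), which is a neighbour on chromosome 2 and not one of the 10 loci, are identical here. Over the coding sequence PIP2B and RD28 share 94.8% of bases and 254 windows of 50 identical bases, which is 22.0% of such windows in the PIP2B transcript. The next closest pairs are PIP1A with PIP1B (87.6%), PIP2A with PIP2B (85.8%), PIP1C with PIP1;4 (85.0%) and PIP3 with PIP2;8 (84.0%), and apart from PIP2B with RD28 no pair of the 13 PIP genes shares a window of 50 identical bases. Among the genes with a row of their own, the count of PIP2B is therefore the least certain, although its values were whole numbers in every library, as in all 8 rows.

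**Figure D1:**
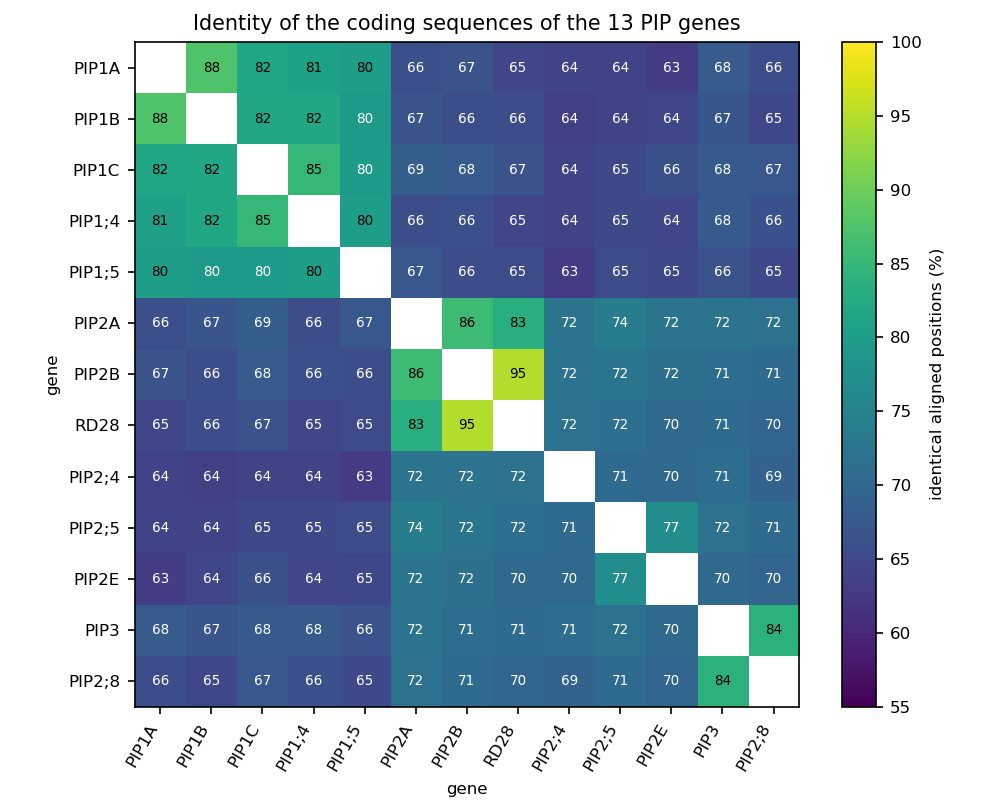
Percent of identical bases between the aligned coding sequences of the 13 PIP genes, each row and column being 1 gene and the colour scale giving percent identity. PIP2B and RD28 stand out at 94.8%, and PIP1A with PIP1B follows at 87.6%.

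In TAIR10.1 each of the 13 genes has 4 exons in the transcript taken for it, that of the lowest RefSeq number. PIP1A (PIP1;1, AT3G61430) lies on chromosome 3 from 22733243 to 22735394 on the plus strand, and PIP1B (PIP1;2, AT2G45960) on chromosome 2 from 18910081 to 18911982 on the plus strand. PIP1C (PIP1;3, AT1G01620) lies on chromosome 1 from 225665 to 227543 on the minus strand. PIP1;4 (AT4G00430) and PIP1;5 (AT4G23400) lie on chromosome 4, from 185285 to 187680 on the minus strand and from 12220641 to 12222468 on the plus strand. Among the PIP2 genes, PIP2A (PIP2;1, AT3G53420) spans 19803473 to 19805730 on the minus strand of chromosome 3 and PIP2B (PIP2;2, AT2G37170) spans 15613368 to 15615022 on the minus strand of chromosome 2. PIP2E (PIP2;6, AT2G39010) spans 16291280 to 16294101 on the plus strand of chromosome 2, PIP3 (PIP2;7, AT4G35100) 16708361 to 16710407 on the plus strand of chromosome 4, and PIP2;5 (AT3G54820) 20301759 to 20304309 on the plus strand of chromosome 3.

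Library totals ranged from 1920012 to 26925706 expected counts, and levels are given as CPM, the count scaled to library totals with TMM factors. GI transcript was present in gi-2 with another daily course (140 CPM at ZT8 and 52 CPM at ZT16 under normal watering, against 301 and 12.5 CPM in wild type, means of 2 libraries), and ABA1 transcript was present in aba1-6, so neither checks the labels by absence. RD29A, a drought-induced gene, rose under drought in wild type (log2 fold change 1.45, edgeR adjusted p = 7.89e-11) and in aba1-6 (1.18, edgeR adjusted p = 4.38e-08), and it had a log2 fold change of 0.29 in gi-2 (edgeR adjusted p = 0.153). The second library of gi-2 under drought at ZT16 is called gi-2 in its title and wild type in its genotype tag. It was used as gi-2, and its GI level of 56.1 CPM stood beside 54.3 CPM in the other library of that group and 13.9 and 22.8 CPM in the wild-type libraries. Leaf markers were abundant in each combination of genotype and watering (summed level of 5 genes, medians from 30800 to 38500 CPM over 8 libraries). Of 9 root markers 5 passed the filter, and the summed level of these 5 had medians from 706 to 979 CPM, nearly all of it PYK10. EXPA7 was at 0 in all 8 libraries of wild type under drought, as were EXPA7, COBL9 and PRP3 in gi-2 under drought.

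Among the 7 genes with a row of their own, levels per kilobase of transcript were compared between genes in wild type with normal watering. At ZT1 the order was PIP1B (1750 and 1640 CPM per kb in the 2 libraries), PIP2A (1130 and 1040), PIP3 (492 and 492), PIP1A (411 and 370), PIP2E (303 and 310), PIP1C (290 and 273) and PIP2B (177 and 161), and no neighbours in this order overlapped. PIP1B (PIP1;2), a gene known for its part in leaf and root water flow, stayed the highest at each of the 4 times. By ZT8 PIP3 (487 and 366 CPM per kb) had passed PIP2A (322 and 269), and PIP1A (104 and 92.2) had dropped below PIP1C (224 and 185). Neighbours whose libraries overlapped were PIP2E with PIP1C at ZT8 and at ZT16, and PIP3 with PIP2A and PIP1A with PIP2B at ZT12. Averaged over the 4 times, the per-kilobase levels ran from 891 CPM per kb for PIP1B to 80.3 for PIP2B. With its transcript of 1509 bases, PIP2E took second place under drought at ZT8 (200 and 214 CPM per kb), above PIP3 (166 and 144) and PIP2A (149 and 150). A length of 2148 bases would lower the PIP2E values, and the order was not computed with it.

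PIP transcripts were highest in the morning. In wild type under normal watering the summed level of the 8 rows was 7490 and 7020 CPM in the libraries of ZT1. It was 3520 and 2900 CPM in those of ZT8, 3460 and 2740 in those of ZT12 and 2760 and 2710 in those of ZT16. All 8 rows varied with time of day when the 4 times were tested together (edgeR adjusted p from 1.48e-16 for PIP2A to 0.00731 for PIP3). Of all 19037 genes tested 38.2% did so, and variation with time of day was thus common in these data. The PIP3 call did not hold without the first normal ZT16 library (edgeR adjusted p = 0.0524) or with the 8 compared libraries alone in the fit (0.0546). From ZT1 to ZT8, 7 of the 8 rows fell and 0 rose, against 14.5% of all genes lower and 15.0% higher, with a median log2 fold change of -1.24 over the 8 rows and 0.00 over all genes.

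The size of the morning fall differed between members. PIP1A (PIP1;1), whose protein moves water once a PIP2 partner carries it to the membrane, had 639 and 576 CPM in its ZT1 libraries. Its ZT8 libraries held 161 and 144 CPM, those of ZT12 145 and 72.7 and those of ZT16 111 and 102. Its ZT1 libraries lay above those of the other times, and the ZT8 step was -2.0 ± 0.20 (log2 fold change ± SE, edgeR adjusted p = 8.62e-10). PIP2A (PIP2;1), a water and hydrogen peroxide channel of roots and guard cells, fell by 1.88 ± 0.15 (edgeR adjusted p = 3.7e-14) and PIP2B (PIP2;2), its close relative in root water uptake, by 1.81 ± 0.18 (edgeR adjusted p = 2.3e-10). PIP1B fell by 1.42 ± 0.13 (edgeR adjusted p = 9.5e-12) and the PIP1 row by 1.07 ± 0.12 (edgeR adjusted p = 2.63e-09). The smaller steps of PIP1C (-0.46) and PIP2E (-0.43) passed the edgeR test at adjusted p = 0.0199 and 0.0113. PIP1C no longer passed without either ZT1 library or without the second ZT8 library (edgeR adjusted p from 0.0504 to 0.242), nor PIP2E without the second ZT1 or the second ZT8 library (0.0663 and 0.143).

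PIP3 (PIP2;7), a channel of leaves and roots that is known to become less abundant in salt stress, did not pass at this step (log2 fold change -0.21, edgeR adjusted p = 0.367), with 789 and 789 CPM at ZT1 and 781 and 587 at ZT8. From ZT8 to ZT12, 1 row fell, that of PIP2E (365 and 324 CPM to 207 and 214, log2 fold change -0.71 ± 0.14, edgeR adjusted p = 0.000227), against 4.80% of all genes lower and 4.32% higher. With the replicate number as a block 3 rows passed, the others being PIP1A at -0.62 (edgeR adjusted p = 0.018) and the PIP1 row at 0.37 (0.00171). PIP1A also passed without the first ZT12 library (log2 fold change -1.06, edgeR adjusted p = 0.000302) and the PIP1 row without the second (0.50, 0.0427). From ZT12 to ZT16, 0 rows passed the edgeR test (2 had an unadjusted p under 0.05, and DESeq2 called 0), against 0.531% of all genes lower and 0.804% higher. PIP1C passed with the block (log2 fold change -0.49, edgeR adjusted p = 0.0142).

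**Figure D2:**
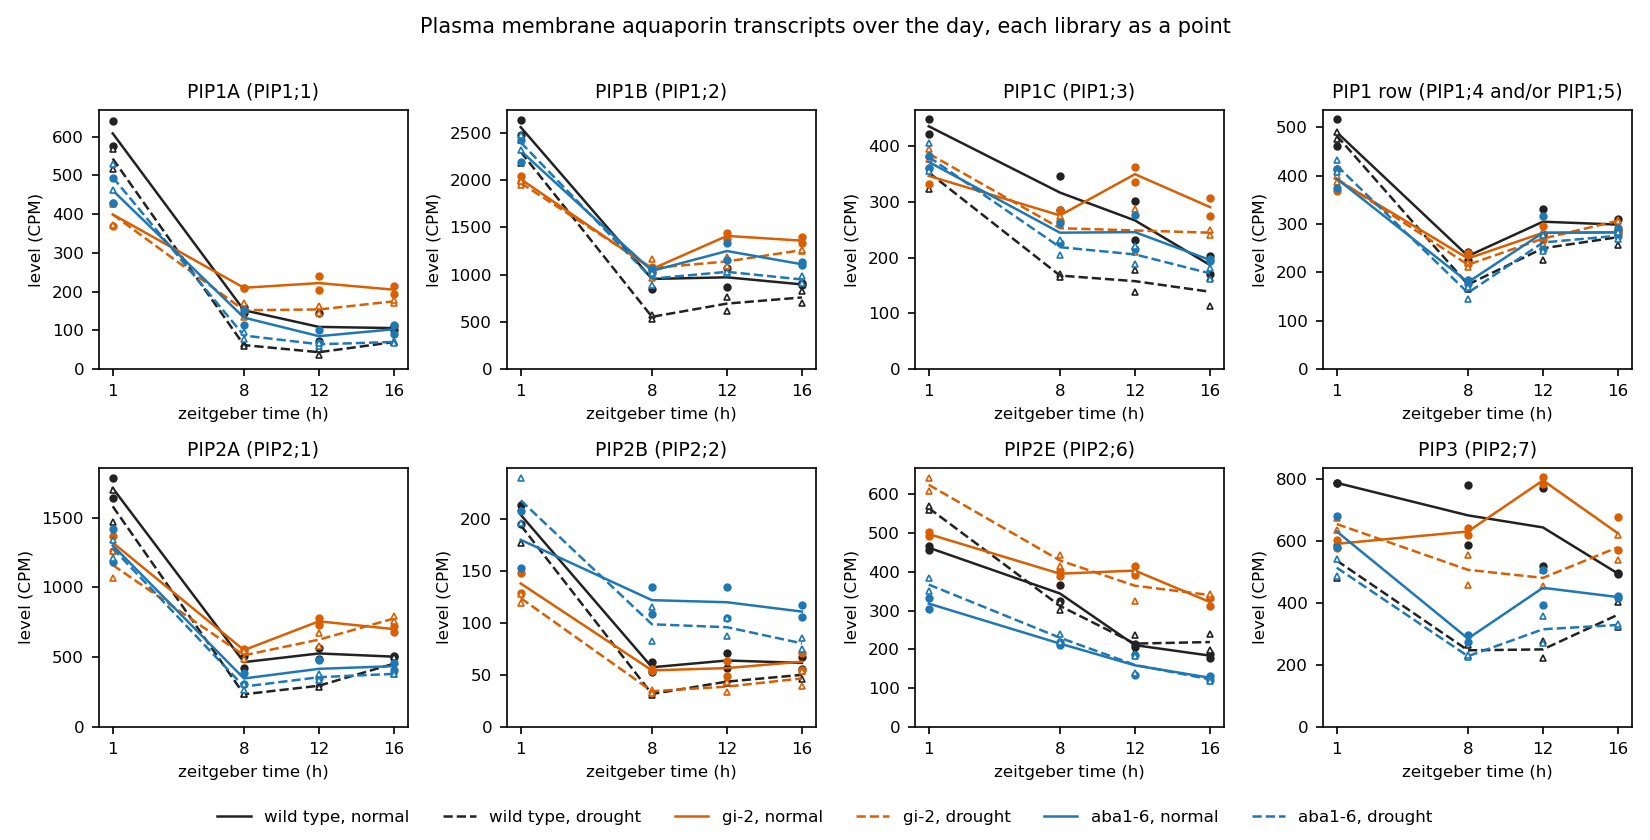
Level of each of the 8 rows (CPM, linear axis from 0) at ZT1, ZT8, ZT12 and ZT16 in wild type, gi-2 and aba1-6 under normal watering and drought, with 1 point per library (filled for normal watering, open for drought) and lines through the means of 2 libraries. In wild type PIP1A drops from 608 CPM at ZT1 to 106 CPM at ZT16 under normal watering, while in gi-2 it drops from 399 to 205 CPM.

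In gi-2 the daily course was flatter for several members. Under normal watering 6 of 8 rows varied with time in gi-2 (26.2% of all genes) and 8 of 8 in aba1-6 (36.2% of all genes), and PIP1C and PIP3 did not pass in gi-2 (edgeR adjusted p = 0.181 and 0.132). Both passed with the replicate block (edgeR adjusted p = 0.0258 and 0.00724) and with the compared libraries alone in the fit (0.00544 and 0.00175), which gave 8 of 8 rows in gi-2 as well, and PIP3 passed with library totals alone (0.0357). For these other fits no share of all genes is given. The highest mean level of PIP1A was 5.71 times the lowest in wild type, 1.95 times in gi-2 and 5.42 times in aba1-6. Tested directly, the gi-2 course was unlike that of wild type in 5 of 8 rows, against 3.75% of all genes. These were PIP1A (edgeR adjusted p = 0.000282), PIP1B (0.00144), PIP2E (0.00279), PIP1C (0.00554) and PIP2A (0.00785). PIP2A did not pass without the first wild-type ZT1 library (edgeR adjusted p = 0.0763) or without the second gi-2 ZT1 library (0.107).

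At ZT1 gi-2 lay at 428 and 370 CPM of PIP1A, below both wild-type libraries, and at ZT12 at 241 and 204 CPM, above both. PIP2E (PIP2;6), expressed around the veins of leaves, showed its difference late in the day: gi-2 held 415 and 392 CPM at ZT12 where wild type held 207 and 214, and 311 and 333 at ZT16 against 189 and 179. At ZT1 the PIP2E libraries of gi-2 (502 and 491 CPM) stood 1.07 times above those of wild type (457 and 467). The PIP3 course passed in the fit with the replicate block (edgeR adjusted p = 0.000861, against 0.0938 without it), as did that of PIP2B (0.0253, against 0.595). Without the block PIP3 passed when the second wild-type ZT8 library (edgeR adjusted p = 0.0469) or the first ZT12 library (0.0123) was left out.

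The aba1-6 course differed from wild type for 1 of 8 rows, PIP2B (edgeR adjusted p = 0.0295), against 0.205% of all genes. Its PIP2B libraries held 208 and 153 CPM at ZT1 and 135 and 109 at ZT8, where those of wild type went from 213 and 195 to 52.7 and 62.3. The call was lost without any 1 of 5 of the 16 libraries: either wild-type ZT1 library (edgeR adjusted p = 0.221 and 0.0747), the first wild-type ZT8 library (0.0672), the second aba1-6 ZT1 library (0.279) or the first aba1-6 ZT8 library (0.0585). The variation of PIP2B with time within aba1-6 was itself lost without the first aba1-6 ZT1 library (edgeR adjusted p = 0.326). PIP3 passed as well with the replicate block (edgeR adjusted p = 0.000188, against 0.0672 without it): in aba1-6 it stood at 298 and 274 CPM at ZT8, below both wild-type libraries. It also passed without the second wild-type ZT8 library (edgeR adjusted p = 0.0369), either wild-type ZT12 library (0.0266 and 0.0297) or the second aba1-6 ZT12 library (0.0443).

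Under drought, 7 of the 8 rows fell in wild type and 0 rose. Effects are means of the log2 ratios at the 4 times, so each time counts alike whatever the level. Of all genes 12.7% were called lower and 10.2% higher, and the median log2 fold change was -0.47 over the 8 rows and 0.01 over all genes. PIP3, also named PIP2;7, had the largest fall of the 8 (-0.95 ± 0.08, log2 fold change ± SE, edgeR adjusted p = 3.71e-12), a time-averaged fold of 0.52. PIP1A followed at -0.82 ± 0.10 (edgeR adjusted p = 2.27e-07), then PIP1C at -0.59 ± 0.08 (1.67e-07) and PIP2A at -0.52 ± 0.07 (3.72e-07). Smaller falls were those of PIP2B (-0.43 ± 0.09, edgeR adjusted p = 0.000652) and PIP1B (-0.41 ± 0.07, edgeR adjusted p = 5.29e-06). In RNA of whole aerial parts, fewer cells of a type and less RNA per cell cannot be told apart.

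The PIP1 row fell by 0.21 ± 0.06 (edgeR adjusted p = 0.0107), and this call did not hold without the 2 shallowest libraries, wild type at ZT12 with normal watering and at ZT16 under drought (edgeR adjusted p = 0.0852), or with the wild-type libraries alone in the fit (0.102). PIP2E had a log2 fold change of 0.11 ± 0.07 (edgeR adjusted p = 0.261). Its 8 libraries ranged from 194 to 570 CPM with a median of 271 under drought, and from 179 to 467 CPM with a median of 269 under normal watering.

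**Figure D3:**
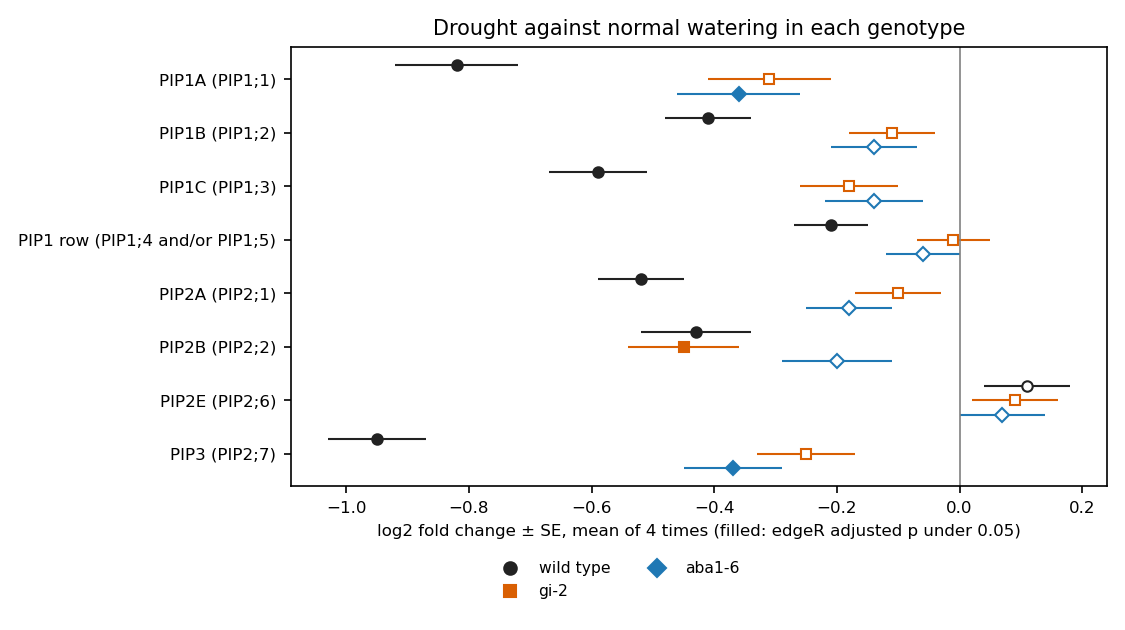
Time-averaged log2 fold change of drought against normal watering for each of the 8 rows in wild type, gi-2 and aba1-6, with bars of 1 SE and filled points for those that passed the edgeR test. In wild type 7 rows lie below 0 and passed, from -0.95 for PIP3 to -0.21 for the PIP1 row, and PIP2E lies at 0.11.

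The median ratio of drought to normal watering over the 8 rows was lowest at ZT8 and ZT12. PIP3 (PIP2;7) stood at 781 and 587 CPM with normal watering and 266 and 230 under drought at ZT8, and at 771 and 520 against 279 and 223 at ZT12. At ZT1 it stood at 789 and 789 against 596 and 481 CPM, and at ZT16 at 495 and 497 against 403 and 322. The drought libraries thus lay below the normal ones at each of the 4 times, at 0.68, 0.36, 0.39 and 0.73 of their mean. PIP1A had 161 and 144 CPM with normal watering and 65 and 59.2 under drought at ZT8, 145 and 72.7 against 51.5 and 36.2 at ZT12, and 111 and 102 against 69.1 and 70.8 at ZT16. At ZT1 its groups stood close, at 639 and 576 against 569 and 517 CPM.

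Both drought libraries lay below both normal ones for all 8 rows at ZT8 and 7 at ZT12, and for 4 at ZT1 and 5 at ZT16. Of all genes the same held for 23.0% at ZT8 and 19.5% at ZT12, and for 21.9% at ZT1 and 19.8% at ZT16. The median log2 ratio of the rows was -0.89 and -0.65 at ZT8 and ZT12, and -0.13 and -0.27 at ZT1 and ZT16. PIP2E was the row whose drought libraries lay above both normal ones, at ZT1 (558 and 570 against 457 and 467 CPM) and at ZT16 (240 and 198 against 189 and 179 CPM). The summed level of the 8 rows was 1830 and 1740 CPM under drought at ZT8, against 3520 and 2900 with normal watering.

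Tested directly, the drought effect differed between times for 2 of 8 rows, PIP2A (edgeR adjusted p = 0.0119) and PIP3 (0.00841), against 0.819% of all genes. PIP2A had 507 and 423 CPM with normal watering and 235 and 235 under drought at ZT8, while at ZT16 its groups overlapped, at 506 and 502 against 505 and 403 CPM. Under the replicate block, for which no share of all genes is given, 5 rows passed. The others were PIP2B (edgeR adjusted p = 0.0028), PIP1B (0.00785) and PIP1A (0.0112). With the wild-type libraries alone in the fit 0 rows passed (edgeR adjusted p = 0.409 for PIP2A and 0.493 for PIP3), and PIP2A did not pass without the first normal ZT8 library (0.0633). PIP1A passed without any 1 of 3 libraries, either normal ZT12 library (edgeR adjusted p = 0.0349 and 0.000831) or the first drought ZT12 library (0.0442).

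**Figure D4:**
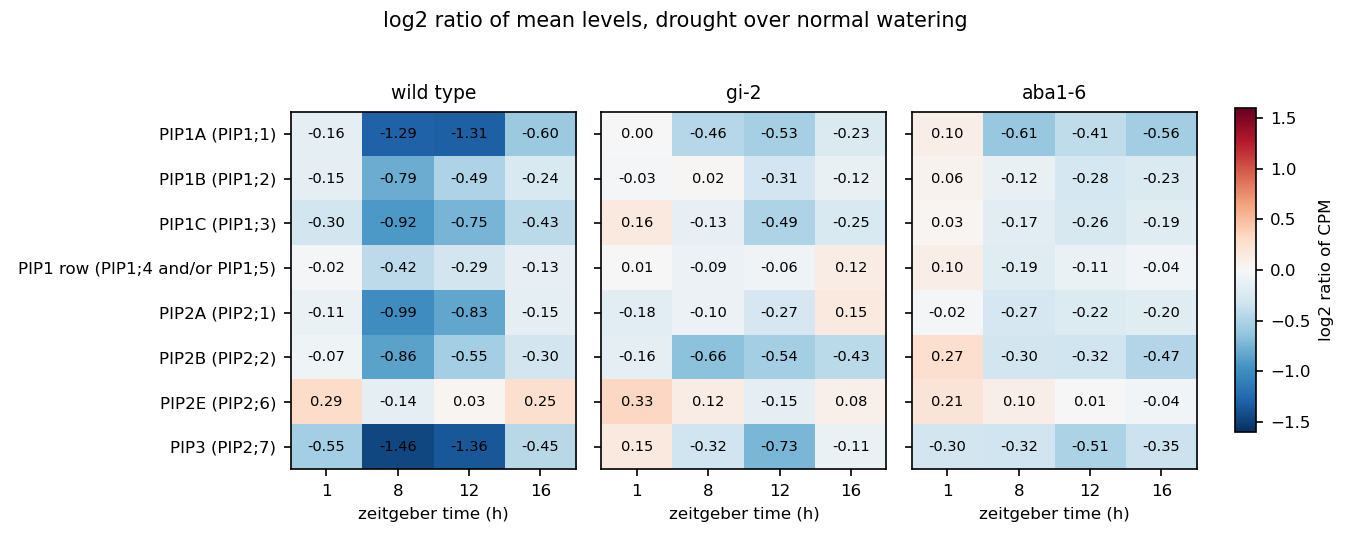
Log2 ratio of drought to normal watering (means of 2 libraries) for each of the 8 rows at each time, in wild type, gi-2 and aba1-6, on a colour scale centred at 0. In wild type the ratios reach -1.46 for PIP3 at ZT8, and at ZT1 they lie between -0.55 and 0.29.

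Marker genes moved as well under drought in wild type. The guard cell genes KAT1 (log2 fold change -0.74, edgeR adjusted p = 2.89e-08) and GC1 (-1.07, 2.59e-09) fell, 2 of 7 guard cell markers, and the summed level of the 7 ranged from 57.2 to 96.3 CPM under drought and from 76.1 to 125 CPM with normal watering. Leaf markers RCA (-0.32, edgeR adjusted p = 0.0173) and GAPA (-0.31, 0.00303) fell, 2 of 5, with summed levels from 25500 to 47500 and from 28000 to 42200 CPM. Vascular markers gave 0 of 8 calls with edgeR and 0 with DESeq2 (1 had an unadjusted p under 0.05), with summed levels of 245 to 554 and 270 to 533 CPM. The root genes NRT2.1 (12.9 to 0.846 CPM, edgeR adjusted p = 2.09e-07) and IRT1 (1.46 to 0.106 CPM, edgeR adjusted p = 0.0323) fell, 2 of the 5 tested, while the summed level of these 5 ranged from 553 to 873 CPM and from 628 to 838 CPM. The part of these cell types in the PIP values was not tested.

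In gi-2 drought lowered 1 of 8 rows, PIP2B (log2 fold change -0.45, edgeR adjusted p = 0.00201), and raised 0, against 3.53% of all genes lower and 1.64% higher, and leaving out the library of conflicting labels gave the same count. PIP2B stood at 55.4 and 53.5 CPM with normal watering and 36.1 and 32.9 under drought at ZT8, and its drought libraries lay below the normal ones at each of the 4 times. PIP1A (-0.31, edgeR adjusted p = 0.0649) and PIP3 (-0.25, 0.0577) lay near the threshold, and both passed without the second drought ZT8 library (0.0432 and 0.0399). DESeq2 called both (adjusted p = 0.0352 and 0.036), and so did edgeR with the replicate block and with the gi-2 libraries alone in the fit, where PIP1C (-0.18) passed as well (edgeR adjusted p = 0.0438 and 0.0235). The median over the 8 rows was -0.14. PIP3 in gi-2 stood at 621 and 643 CPM with normal watering and 458 and 557 under drought at ZT8, and at 605 and 578 against 637 and 674 at ZT1, where its drought libraries were the higher ones. Under drought 4 of the 5 root markers tested fell in gi-2, NRT2.1 (12.4 to 1.45 CPM), IRT1 (2.38 to 0.0415 CPM), PYK10 (log2 fold change -0.39, edgeR adjusted p = 0.00405) and ESB1 (-0.52, 0.0487), and the summed level of the 5 went from a median of 979 CPM to 706. The guard cell gene KAT1 fell too (-0.51, edgeR adjusted p = 9.15e-05), 1 of 7. The part of these cell types in the PIP values was not tested.

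In aba1-6, 2 of 8 rows fell, PIP3 (-0.37, edgeR adjusted p = 0.00149) and PIP1A (-0.36, 0.0166), and 0 rose, against 5.31% of all genes lower and 4.01% higher, with a median of -0.16 over the rows. PIP3 stood at 298 and 274 CPM with normal watering and 227 and 232 under drought at ZT8, and at 507 and 393 against 360 and 271 at ZT12. Its drought libraries lay below the normal ones at each of the 4 times. The PIP1A call was lost without any 1 of 5 of the 16 libraries (edgeR adjusted p from 0.0518 to 0.0711): the first normal libraries of ZT8, ZT12 and ZT16, the second drought library of ZT8 and the first of ZT12. PIP2A passed without the second normal ZT12 library (0.0383, against 0.122 with it). The replicate block, for which no share of all genes is given, gave 5 rows. The others were PIP2B (-0.21, edgeR adjusted p = 0.00241), PIP2A (-0.17, 0.0114) and PIP1B (-0.14, 0.033). Of the markers, NRT2.1 (16.5 to 2.58 CPM, edgeR adjusted p = 3.33e-06) and IRT1 (3.1 to 0.564 CPM, 0.0139) fell, 2 of the 5 root genes tested, as did the guard cell gene GC1 (-0.57, 0.000103), 1 of 7, and their part was not tested.

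The difference of the drought effects was tested itself. Between gi-2 and wild type it passed for 5 of 8 rows, each time as a weaker lowering in gi-2, against 3.87% of all genes higher in this difference and 3.09% lower. The differences in log2 fold change were 0.70 for PIP3 (edgeR adjusted p = 4.99e-05), 0.52 for PIP1A (0.0228), 0.41 for PIP2A (0.00676), 0.41 for PIP1C (0.0146) and 0.31 for PIP1B (0.036). The PIP3 and PIP2A calls held when each of the 32 libraries was left out. PIP1A did not pass without the second wild-type drought ZT12 library (edgeR adjusted p = 0.0572), and PIP1C did not pass without the 2 shallowest libraries together (0.0674). The PIP1B call was lost in 17 of the 32 omissions (edgeR adjusted p from 0.0504 to 0.0892). These were, in wild type, the first normal and the second drought library of each time. In gi-2 they were both normal ZT1 libraries, the first of ZT8 and the second of ZT12 and ZT16, and the first drought library of ZT12 and the second of ZT1, ZT8 and ZT16, the last being the library of conflicting labels (0.0524). With the replicate block the PIP1 row passed as well (0.21, edgeR adjusted p = 0.0158, against 0.165). For PIP2B and PIP2E the differences were -0.01 and -0.01. Among the markers, GC1 (0.88, edgeR adjusted p = 0.000183) and RCA (0.46, 0.0344) differed in the same direction, while the root gene PYK10 differed the other way (-0.45, 0.0204), and their part was not tested.

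Between aba1-6 and wild type the difference passed for 2 of 8 rows, PIP3 (0.59, edgeR adjusted p = 0.00205) and PIP1C (0.45, 0.0177), against 1.83% of all genes higher and 0.914% lower. Mean PIP3 was 447 CPM in aba1-6 and 654 in wild type with normal watering, and 347 and 350 CPM under drought. Under drought PIP3 in aba1-6 thus stood level with wild type (log2 fold change 0.0, edgeR adjusted p = 0.994). PIP1C did not pass without the 2 shallowest libraries (edgeR adjusted p = 0.0669). Under the replicate block 6 rows passed, the others being PIP2A (0.35, edgeR adjusted p = 0.000657), PIP1B (0.27, 0.00478), PIP1A (0.47, 0.0141) and PIP2B (0.23, 0.0439). The shares of all genes given here are those without the block. Leaving out single libraries gave counts from 2 to 5, with PIP2A passing in 9 of 32 omissions (edgeR adjusted p from 0.018 to 0.047, against 0.0559 with all libraries), PIP1A in 4 (0.00325 to 0.0473) and PIP1B in 2 (0.0441 and 0.0463). The guard cell gene KAT1 differed in the same direction (0.58, edgeR adjusted p = 0.00459), and its part was not tested. Both differences share the wild-type libraries.

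Under normal watering 4 of 8 rows were higher in gi-2 than in wild type and 0 lower, against 7.10% of all genes higher and 5.61% lower. They were PIP2E (log2 fold change 0.51, edgeR adjusted p = 1.91e-07), PIP1A (0.48, 0.001), PIP1B (0.24, 0.0124) and PIP2A (0.22, 0.0355). These are means of the 4 times, and at ZT1 PIP1A, PIP1B and PIP2A were lower in gi-2. Their gi-2 means at ZT1 were 0.66, 0.79 and 0.77 of those of wild type, and that of PIP2E was 1.07. PIP2E ranged from 311 to 502 CPM with a median of 396 over the 8 gi-2 libraries, and from 179 to 467 with a median of 269 in wild type. PIP1B did not pass without the second wild-type library of ZT8 (edgeR adjusted p = 0.0594) or of ZT12 (0.0535). PIP2A did not pass in 10 of 16 omissions (0.056 to 0.117), which left out the second wild-type libraries of the 4 times, the first of ZT16, the first gi-2 libraries of the 4 times and the second of ZT8. With the replicate block PIP2B (-0.20, edgeR adjusted p = 0.00562) and the PIP1 row (-0.13, 0.0245) passed as lower. The root genes PYK10 (703 CPM in wild type and 918 in gi-2, log2 fold change 0.37, edgeR adjusted p = 0.00323) and ESB1 (0.68, 0.00334) were higher in gi-2 in this comparison, 2 of the 5 tested. The summed root marker level ranged from 688 to 1240 CPM in gi-2 and from 628 to 838 in wild type. Among 7 guard cell markers KAT1 was higher (0.40, edgeR adjusted p = 0.000596) and FAMA lower (-0.53, 4.18e-05), and the part of these markers in the PIP values was not tested.

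Under drought 6 of 8 rows were higher in gi-2 and 0 lower, against 15.3% of all genes higher and 13.3% lower, with a median of 0.54 over the rows and -0.01 over all genes. PIP1A had the largest difference (1.0, a fold of 2.0, edgeR adjusted p = 2.82e-09): gi-2 held 134 and 170 CPM at ZT8 where wild type held 65 and 59.2, 163 and 144 at ZT12 against 51.5 and 36.2, and 171 and 179 at ZT16 against 69.1 and 70.8. At ZT1 the order was the other way, 427 and 371 CPM in gi-2 against 569 and 517 in wild type. The others were PIP3 (0.73, edgeR adjusted p = 1.72e-09), PIP2A (0.63, 2.91e-09), PIP1B (0.54, 1.76e-08), PIP1C (0.54, 6.57e-07) and PIP2E (0.50, 1.15e-07). Of these, PIP2A and PIP1B were also lower in gi-2 at ZT1, at 0.73 and 0.85 of the wild-type mean. PIP3, PIP2E and PIP1C were higher there, at 1.22, 1.11 and 1.09 of it. PIP2B stood at -0.21 (edgeR adjusted p = 0.0993) and passed as lower with the replicate block (0.003) and without the first gi-2 ZT16 library (0.0493). The count was the same without the library of conflicting labels. In this comparison 0 of 5 root markers were called with edgeR and 0 with DESeq2 (1 had an unadjusted p under 0.05), and the summed level of the 5 ranged from 401 to 1290 CPM in gi-2 and from 553 to 873 in wild type. Of 7 guard cell markers GC1 (0.90, edgeR adjusted p = 8.12e-08) and KAT1 (0.63, 4.43e-07) were higher and FAMA lower (-0.28, 0.0221), with summed levels from 73.7 to 100 CPM in gi-2 and from 57.2 to 96.3 in wild type. The leaf genes RCA (0.66, edgeR adjusted p = 1.31e-06) and GAPA (0.36, 0.000602) were higher, 2 of 5, as was SWEET11 (0.70, 0.00307), 1 of 8 vascular markers. The part of these cell types in the PIP values was not tested.

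**Figure D5:**
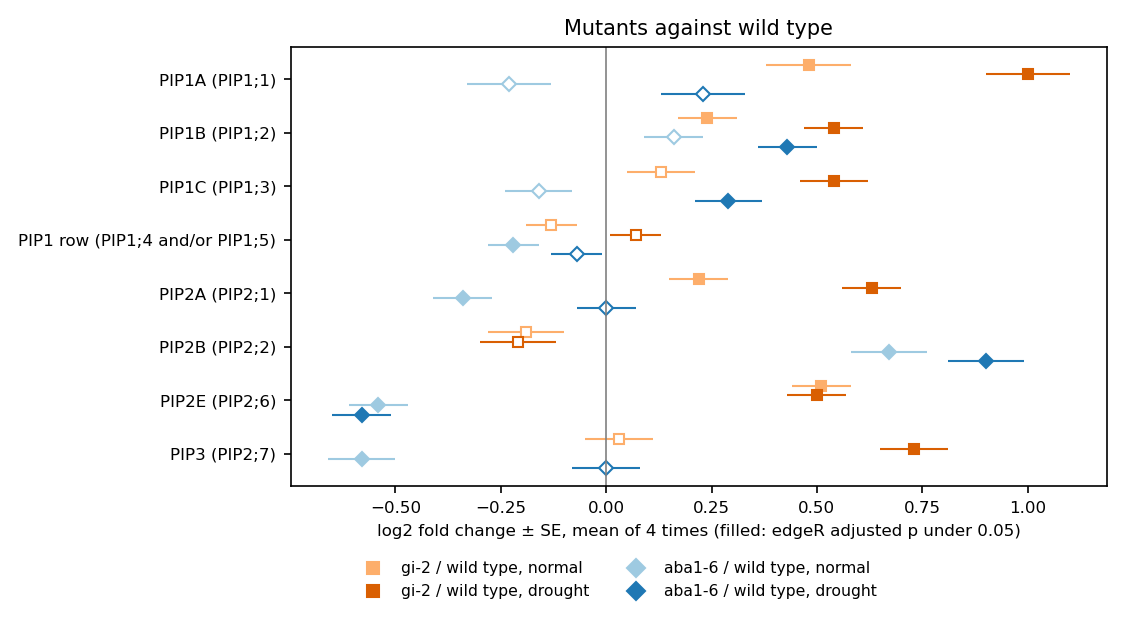
Time-averaged log2 fold change of gi-2 and aba1-6 against wild type for each of the 8 rows, under normal watering and under drought, with bars of 1 SE and filled points for those that passed the edgeR test. PIP1A in gi-2 under drought lies at 1.0, and in aba1-6 PIP2B lies at 0.67 and 0.90 while PIP2E lies at -0.54 and -0.58.

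The aba1-6 mutant split the PIP2 genes. Under normal watering 4 of 8 rows were lower and 1 higher than in wild type, against 9.33% of all genes lower and 7.64% higher. Those lower were PIP3 (-0.58, edgeR adjusted p = 6.53e-07), PIP2E (-0.54, 5.17e-08), PIP2A (-0.34, 0.000583) and the PIP1 row (-0.22, 0.0102, and 0.0577 without the second aba1-6 ZT12 library). PIP2B was higher (0.67, edgeR adjusted p = 6.89e-07), with 105 to 208 CPM and a median of 126 over the 8 libraries, against 52.7 to 213 and a median of 64.8 in wild type. For the fit with the replicate block no share of all genes is given, and its p-values for mutants against wild type may be too small. With this block the 8 rows all passed, PIP1B as higher (0.16, edgeR adjusted p = 0.00809) and PIP1A (-0.23, 0.0454) and PIP1C (-0.16, 0.0449) as lower. Without it PIP1A passed when the second wild-type (edgeR adjusted p = 0.00339) or the first aba1-6 library of ZT12 (0.0315) was left out, and PIP1B when the first wild-type library of ZT8 (0.0383) or ZT12 (0.0422) was. Under drought 3 rows were higher, PIP2B (0.90, edgeR adjusted p = 8.7e-10), PIP1B (0.43, 2.12e-06) and PIP1C (0.29, 0.00525), and PIP2E was lower (-0.58, 4.93e-09), against 11.4% of all genes higher and 11.3% lower. PIP1A passed as higher with the block (0.24, edgeR adjusted p = 0.0403) and without the first wild-type ZT12 library (0.0442).

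Markers of other cell types differed in these comparisons too. Under normal watering the guard cell gene MYB60 was higher in aba1-6 (0.72, edgeR adjusted p = 1.84e-05), 1 of 7, and the leaf genes RBCS1A (-0.29, 0.002) and CA1 (-0.24, 0.0496) were lower, 2 of 5. Under drought 4 of 7 guard cell markers were higher, MYB60 (0.77, edgeR adjusted p = 4.8e-06), GC1 (0.69, 1.54e-05), KAT1 (0.68, 7.76e-08) and FAMA (0.24, 0.0434), and the summed level of the 7 ranged from 79.8 to 140 CPM in aba1-6 and from 57.2 to 96.3 in wild type. The leaf genes RBCS1A (-0.24, edgeR adjusted p = 0.00753) and GAPA (0.28, 0.00898) differed in opposite directions. SWEET11 (0.53, edgeR adjusted p = 0.0256) and the root gene NRT2.1 (2.58 against 0.846 CPM, 0.0441) were higher. Their part in the PIP values was not tested.

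PIP2B in aba1-6 stood apart late in the day. At ZT8 it held 135 and 109 CPM against 52.7 and 62.3 in wild type, at ZT12 135 and 105 against 70.9 and 57.2, and at ZT16 117 and 106 against 67.3 and 56.2, while at ZT1 the groups overlapped at 208 and 153 against 213 and 195. The near-identical RD28 (PIP2;3) was higher in aba1-6 too (0.46 with normal watering and 0.77 under drought, edgeR adjusted p = 0.00487 and 1.04e-05). Whether reads of either gene were counted for the other was not tested. With the counts of PIP2A, PIP2B and RD28 summed, the difference under normal watering was -0.15, a sum in which PIP2A is the largest part. PIP2E was lower in aba1-6 than in wild type at each time under normal watering, with 122 and 131 CPM of it at ZT16 in aba1-6 against 189 and 179 in wild type, the 2 groups not overlapping at any of the 4 times.

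The row shared by PIP2;4, PIP2;5 and PIP2;8 was low and had another daily course. It stood at 19.3 and 15.3 CPM at ZT1 and 37.5 and 26.1 at ZT12 in wild type with normal watering. Under drought it fell in wild type (log2 fold change -0.37, edgeR adjusted p = 0.00511) and did not pass in gi-2 (-0.07, 0.806) or aba1-6 (-0.14, 0.438). Under normal watering it was lower in gi-2 than in wild type (-0.43, edgeR adjusted p = 0.00168).

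Other aquaporins of the vacuole membrane and of the NIP and SIP subfamilies, with RD28 (PIP2;3), were listed as 25 genes, of which 13 had a row of their own and 9 passed the filter. In wild type drought lowered 4 of the 9 and raised 1, against 12.7% of all genes lower and 10.2% higher. The falls were those of TIP2;1 (-1.50, edgeR adjusted p = 7.4e-12) and TIP1;1 (-1.02, 3.47e-06), channels of the vacuole membrane, NIP1;1 (-0.63, 0.0336) and RD28 (-0.43, 0.0157), and NIP5;1, a boron channel, rose by 0.42 (0.0138). In gi-2 RD28 alone passed (-0.47, edgeR adjusted p = 0.0298), against 3.53% of all genes lower. In aba1-6 TIP1;1 (-0.48, edgeR adjusted p = 0.0262) and TIP2;1 (-0.72, 2.45e-05) fell and NIP5;1 (0.40, 0.0156) rose, against 5.31% of all genes lower and 4.01% higher. The drought effect itself differed from wild type for TIP2;1 in gi-2 (1.18, edgeR adjusted p = 6.14e-06) and in aba1-6 (0.77, 0.00434), and for NIP1;1 in gi-2 (1.21, 0.00761), where 3.87% of all genes were called higher in this difference for gi-2 and 1.83% for aba1-6. From ZT1 to ZT8 NIP6;1 (-3.64), RD28 (-3.43), TIP2;1 (-1.23) and NIP5;1 (-0.65, edgeR adjusted p = 0.0404) fell and NIP1;1 rose (1.55, 0.00596). At this step 14.5% of all genes were lower and 15.0% higher. The median drought effect of the 9 in wild type was -0.63.

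A list of 12 genes whose proteins move, phosphorylate or degrade PIPs was measured in full. Drought in wild type raised 3 of them, TSPO (2.09 to 11.5 CPM, edgeR adjusted p = 0.0218), which binds PIP3 (PIP2;7) and leads it to breakdown, SYP61 (0.37, 0.00838), a trafficking syntaxin, and UBC32 (0.30, 0.0254), a ubiquitin-conjugating enzyme. It lowered 4: QSK1 (-0.46, edgeR adjusted p = 5.68e-06), SIRK1 (-0.34, 0.000163) and BAK1 (-0.19, 0.0454), which are receptor-like kinases, and SYP121 (-0.46, 2.91e-05), a syntaxin of the plasma membrane. Of all genes 10.2% were higher and 12.7% lower in this comparison. In gi-2 0 of 12 passed with edgeR and 0 with DESeq2 (2 had an unadjusted p under 0.05), against 3.53% of all genes lower and 1.64% higher. In aba1-6 TSPO (0.144 to 4.56 CPM) rose and RMA1 (-0.45), a ubiquitin ligase, SIRK1 (-0.25) and QSK1 (-0.22) fell, against 4.01% of all genes higher and 5.31% lower. Under drought gi-2 held less TSPO than wild type (1.39 against 11.5 CPM, edgeR adjusted p = 0.00899), less RMA2 (-0.65, 6.5e-05), UBC32 (-0.38, 0.00238) and SYP61 (-0.27, 0.0454), and more of 5 others, against 13.3% of all genes lower and 15.3% higher. The difference of drought effects between gi-2 and wild type passed for QSK1 (0.35, edgeR adjusted p = 0.0243) and for 0 of the other 11, against 3.87% of all genes higher in it. It passed between aba1-6 and wild type for 0 of 12 (0 with DESeq2, 3 at an unadjusted p under 0.05).

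Likeness between the rows was measured across the 24 group means of log2 CPM, which share their libraries. Between single rows Pearson's r ran from 0.11 for PIP2B with PIP2E and 0.21 for PIP2B with PIP3 to 0.95 for PIP1A with PIP2A. Pearson's r of a row with the mean of the other 7 was 0.968 for PIP2A, 0.964 for PIP1A, 0.947 for PIP1B, 0.898 for PIP1C, 0.789 for the PIP1 row, 0.711 for PIP3, 0.624 for PIP2E and 0.572 for PIP2B. For the PIP2 row it was -0.607 with the mean of the 8. The genes outside the lists whose profile was most like the mean of the 8 rows were AT2G26800 (r = 0.97 over 24 group means), CER3, a gene of wax synthesis (0.966), AT3G05900 (0.958) and rows named SERAT2 (0.964) and HSL1 (0.956), whose cut names fit more than 1 locus. In wild type with normal watering CER3 had a mean of 343 CPM at ZT1 and of 145, 121 and 129 CPM at the later times.

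The promoters, taken as 250 bases before to 50 after the annotated start in TAIR10.1, were searched on both strands for 5 short motifs. Of the 10 loci, 0 held the evening element AAAATATCT, the CCA1 binding site AAAAATCT, the G-box CACGTG or the core ACGTG of the abscisic acid response element, which lies within the G-box. These motifs occur in 2.82%, 7.88%, 7.68% and 26.7% of 27443 promoters. The core CCGAC of the dehydration-responsive element was found in 2 of the 10, PIP1C (134 bases before the start) and PIP2;5 (124 bases before it), and in 15.1% of all promoters. A missing match says only that these letters are not in this window.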

How the data were processed

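The tools named per the submitters' processing notes are Bowtie2, RSEM and edgeR, with the build TAIR10. The sources used here do not give their versions, settings or strand. The authors deposited expected counts per gene and library, judged from the values (98.6% whole, unequal totals). Among whole values up to 10, between 66.8% and 80.2% per library were even, so both mates of a pair may be counted, and no counting error is given. The last column, whose lines end in an extra tab, was entered with an unspecified unit and used as the same deposited expected counts. The table cuts gene symbols at a semicolon, as 115 of 115 such symbols showed, and rows were matched to TAIR10.1 by locus or symbol.

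Expected counts were rounded. With edgeR 4.0.16 in R 4.3.3, 19037 genes passed filterByExpr, TMM factors ran from 0.862 to 1.14, and 24 group means were fitted to 48 libraries (robust, biological coefficient of variation 12.1%, 24 residual degrees of freedom). Contrasts were tested with the quasi-likelihood F-test, adjusted by Benjamini-Hochberg over all genes and called under 0.05. With 2 libraries per group, p-values rest on a spread shared by all groups. The scripts were tested on simulated data. Members and lists were chosen with earlier results of these data known. The rule for names took all 10 loci, of which 7 have values of their own, 2 those of the PIP1 row and PIP2;5 none. It also took up to 4 called genes per list with the largest change, further called members being named after their values were seen, and the 5 genes most like the mean profile.

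Replicate numbers paired the wild-type libraries: same-numbered libraries deviated together in 28 of 28 pairs of groups (r from 0.134 to 0.482). They did not pair those of gi-2 or aba1-6. The fit had no term for this, so p-values of mutants against wild type may be too small. The replicate block takes the shared deviation out of the spread within each genotype but does not add it to differences between genotypes. Its p-values for mutants against wild type may therefore be smaller still. Alternatives were DESeq2 1.42.0, other scalings and filters, a replicate block, fewer libraries in the fit, leaving out single libraries and summed close copies.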

Additional observations from a re-analysis of the deposited data

Results flagged for a closer look

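The results below were picked out because an effect differed between genotypes or times by a test of the difference itself (edgeR, adjusted over all genes).

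The drought effect in gi-2 differed from that in wild type for PIP3 (difference in log2 fold change 0.70), PIP1A (0.52), PIP1C (0.41), PIP2A (0.41) and PIP1B (0.31). In wild type these 5 genes fell by 0.95, 0.82, 0.59, 0.52 and 0.41 on the log2 scale, and in gi-2 their values were -0.25, -0.31, -0.18, -0.10 and -0.11. None of these passed the edgeR test, while DESeq2 called PIP3 (adjusted p = 0.036) and PIP1A (0.0352), and with the gi-2 libraries alone in the fit edgeR called PIP3, PIP1A and PIP1C (0.0235). The drought effect in aba1-6 differed for PIP3 (0.59) and PIP1C (0.45).

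The daily course in gi-2 differed from wild type for PIP1A (edgeR adjusted p = 0.000282), PIP1B (0.00144), PIP2E (0.00279), PIP1C (0.00554) and PIP2A (0.00785). At ZT16, relative to ZT1, the difference from wild type in log2 fold change was 1.55, 0.95, 0.70, 0.97 and 0.85 for these genes. That of aba1-6 differed for PIP2B (edgeR adjusted p = 0.0295), a call that rested on each of 5 libraries.

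Within wild type the drought effect differed between times for PIP3 (edgeR adjusted p = 0.00841) and PIP2A (0.0119), with log2 ratios of -1.46 and -0.99 at ZT8 and -0.45 and -0.15 at ZT16.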

How the results depend on the processing

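Of 1657 recomputed log2 fold changes of the 8 rows, 1 changed sign among called values: PIP2B in aba1-6 with normal watering was 0.67 alone and -0.15 with PIP2A and RD28 summed in. PIP2A is the largest part of that sum and was itself lower in aba1-6 (-0.34), so the sum does not show PIP2B. A sum of PIP2B with RD28 alone was not run. The sums of PIP1C with PIP1;4 and PIP3 with PIP2;8 were not run, since the copies have no row of their own. The 7 calls of drought in wild type stayed at 7 when single libraries were left out. Counts of called rows moved as follows. For drought in gi-2 (1) they were 3 with library totals alone, without a filter, without the 2 shallowest libraries and with DESeq2, and 4 with only the compared libraries, with 1 to 3 when single libraries were left out. For the drought difference of gi-2 (5) it was 3 without the 2 shallowest libraries (3 to 5 over single omissions), and for that of aba1-6 (2) 1 without them, 4 without a filter and 5 with DESeq2 (2 to 5). The daily course of aba1-6 (1) gave 2 with library totals alone, without a filter, without the 2 shallowest libraries and with DESeq2 (0 to 2). Drought by time in wild type (2) gave 4 without a filter, 4 with DESeq2 and 0 with only the compared libraries (1 to 3). The step from ZT8 to ZT12 (1) gave 2 with library totals alone, without a filter, with a filter at 5 CPM, without the 2 shallowest libraries and with DESeq2 (1 to 2), and that from ZT12 to ZT16 (0) gave 1 with library totals alone and 1 without a filter. Over single omissions drought in aba1-6 (2) gave 1 to 3, gi-2 against wild type with normal watering (4) 2 to 4, and aba1-6 against wild type (5) 4 to 6. The cause was not tested, apart from fewer libraries or other tested genes where the setting itself names them.

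With the replicate block within each genotype the counts were 8 for time of day in gi-2 (6 without it), 4 for drought in gi-2, 5 for drought in aba1-6, 8 for aba1-6 against wild type with normal watering, 6 for the drought difference of aba1-6, 2 for the daily course of aba1-6, 5 for drought by time in wild type, 3 for ZT8 to ZT12 and 1 for ZT12 to ZT16. Pairing by replicate number was weak and uneven by this measure in gi-2 (r over 0.1 in 6 of 28 pairs of groups and under -0.1 in 1). The same held in aba1-6 (8 and 1 of 28). No call was lost with the block. The shares of all genes given throughout are those of the fit without the block. Higher counts with the block therefore have no share of all genes beside them and are not a result about the PIP rows alone. With 2 libraries per group and depths from 1920012 counts, log2 changes of about 0.2 lay near what could be called.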
